A study of Mus musculus and Homo sapiens with 22 samples.

Results

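Of the genes most reduced in RNA when N2A cells were depleted of the splicing factor U2af65, 8 protein-coding genes were followed. These were Gpr22, Acap1, Idh2, Lgals4, S100a1, Psrc1, Neil3 and Pif1. They were chosen by their strong decrease in the U2af65 knockdown library against both control libraries, out of 22667 mouse gene identifiers, of which 11237 were tested. The values of that contrast are therefore given as a description, with no test on the 8 genes. N2A is a mouse neuroblastoma cell line. Polyadenylated RNA was sequenced from 6 N2A files. Of these, 4 were single libraries harvested 48 hours after transfection with an ON-TARGETplus siRNA pool and RNAiMax: the non-targeting control pool (siCtrl a and b), the pool against U2af65 (siU2af65) and the pool against Ptbp1 (siPtbp1). The other 2 files came from cells carrying a lentiviral hairpin under 2 ug/mL puromycin, against GFP (shGFP) or against nSR100 (shnSR100), and each combined 2 sequencing runs. No group but siCtrl had more than 1 file. The labels do not state that siCtrl a and b were separate cultures, so a p-value reflects only how far these libraries scatter, and that scatter may be technical.

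U2af65, the product of U2af2, is the large subunit of the U2 auxiliary factor. It binds the polypyrimidine tract ahead of the 3′ splice site and helps to bring the U2 snRNP to the branch point, a step in the removal of most introns. Ptbp1 also binds polypyrimidine tracts and represses many neuronal exons, and nSR100, the product of Srrm4, promotes the inclusion of neuronal microexons. Reads were counted per gene, so what follows concerns RNA levels and not splicing.

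The 6 files held 60220620 to 77138004 reads in genes. U2af2 was at 113 and 105 RPKM (reads scaled by gene length and by the file's total) in siCtrl a and b and at 18.4 RPKM in siU2af65, and its log2 level fell by 2.67 (SE 0.26, adjusted p = 0.00468 in edgeR). Ptbp1 was at 8.53 RPKM in siPtbp1 against 158 and 139 RPKM in the controls. Srrm4 was at 2.50 RPKM in shnSR100 and 11.6 RPKM in shGFP, but it also ranged from 4.51 to 12.0 RPKM over the siRNA libraries. All 10 noradrenergic neuroblastoma markers reached 1 RPKM in at least 1 file. Their summed RPKM was 1125 and 1072 in siCtrl a and b, 816 in siU2af65, 973 in siPtbp1, 928 in shGFP and 782 in shnSR100, and 1 of them fell after U2af65 knockdown. Chgb was the largest part of this sum, at 675 and 668 RPKM in siCtrl a and b and 424 RPKM in siU2af65. The sum hides that the controls a and b differed for Dbh (21.0 and 5.31 RPKM) and Th (20.2 and 6.61 RPKM). The 6 fibroblast markers summed to 0.410 to 0.840 RPKM in the siRNA libraries, 7.27 RPKM in shGFP and 12.2 RPKM in shnSR100, with 4 of the 6 under 1 RPKM in every file. The 6 immune markers summed to 0.620 and 1.17 RPKM in the controls and 3.88 RPKM in siU2af65, where 1 of them rose, and 5 were under 1 RPKM in every file. The 3 endothelial markers summed to 4.56 and 5.14 RPKM in the controls and 9.21 RPKM in siU2af65, with 2 under 1 RPKM in every file. Nearly all of this sum was Pecam1, at 4.54 and 5.10 RPKM in the controls and 9.15 RPKM in siU2af65, which was not called. The 8 neuronal markers summed to 1108 and 1049 RPKM in the controls, 1061 in siU2af65, 998 in siPtbp1, 1000 in shGFP and 552 in shnSR100, with 2 under 1 RPKM in every file. The 5 glial markers summed to 2.59 and 2.72 RPKM in the controls, 5.15 in siU2af65 and 2.29 to 2.63 in the other files, with 3 under 1 RPKM in every file. No marker was at 0 in every file, and the part of these shifts in the values below was not tested.

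All 8 genes were lowest in siU2af65 among the 6 files, at 8.75 to 20.6% of the RPKM of either control. In edgeR 3.42% of the tested genes fell and 1.82% rose after U2af65 knockdown, against which nothing is read for genes chosen on that contrast. In bulk RNA, fewer cells that express a gene and less RNA per cell cannot be told apart.

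**Figure D1:**
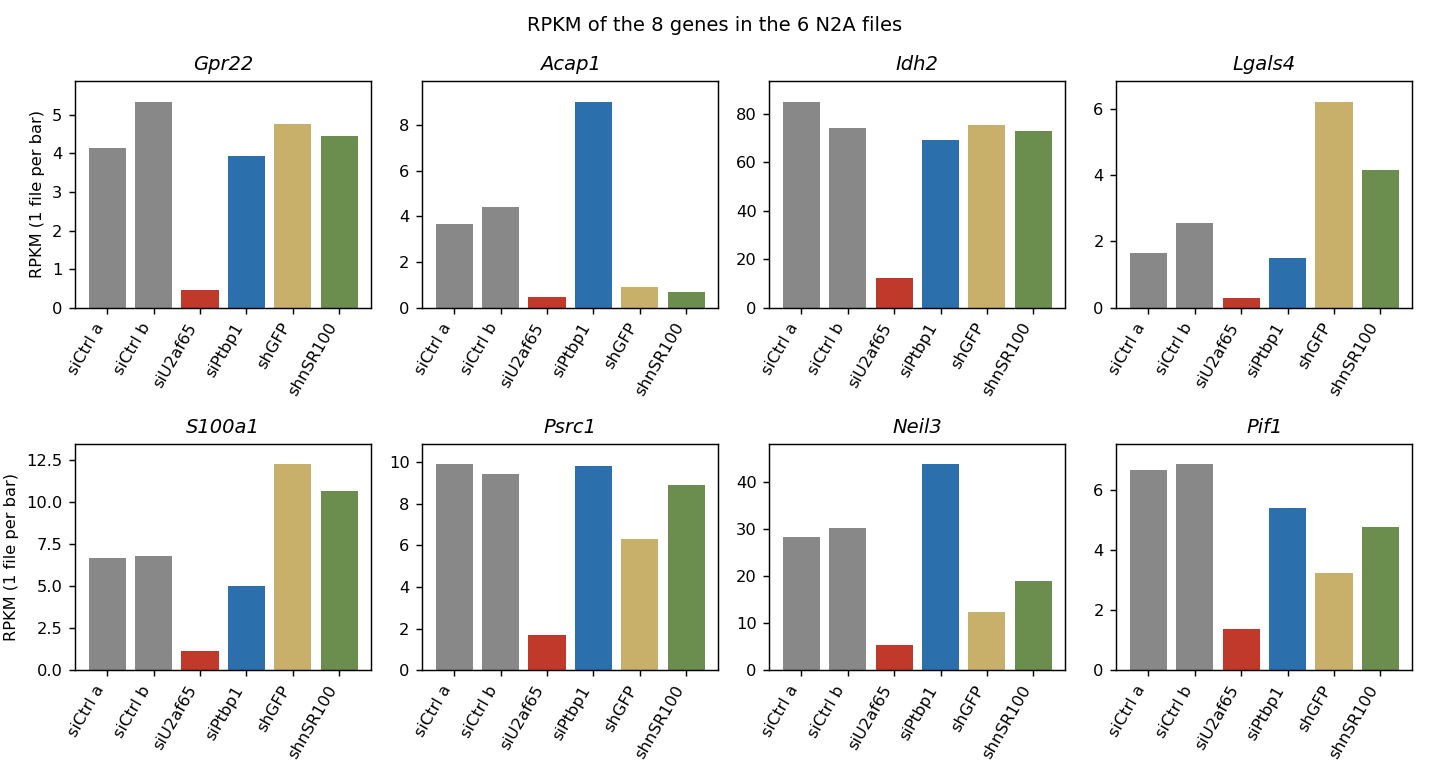
Each panel shows 1 gene, with 1 bar per file and RPKM on a linear axis from 0. In every panel the siU2af65 bar is the lowest, while Acap1 is also low in the hairpin files (0.920 and 0.690 RPKM) and Lgals4 is highest in shGFP (6.21 RPKM).

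Gpr22 (ENSMUSG00000044067) encodes an orphan class A G protein-coupled receptor, known from brain and heart. It had 1201 and 1869 reads in siCtrl a and b, 145 in siU2af65, 1246 in siPtbp1, 1301 in shGFP and 1490 in shnSR100. In RPKM these were 4.14, 5.34, 0.470, 3.93, 4.76 and 4.46, so the 5 files other than siU2af65 lay within 1.36-fold of each other. The control mean was 4.74 ± 0.849 RPKM (SD, n = 2), and siU2af65 was at 11.3% of control a (95% counting interval 9.43 to 13.4%) and 8.75% of control b (7.34 to 10.4%). Intervals of this kind are exact binomial and cover counting error only. The log2 difference was -3.44 (SE 0.40), the lowest of the 8 genes and rank 4 from the lowest of all tested genes. Log2 differences are edgeR's with TMM scaling, which rescales libraries so that most genes do not differ.

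Idh2 (ENSMUSG00000030541) encodes the mitochondrial, NADP-dependent isocitrate dehydrogenase and was the most abundant of the 8 genes per length. It had 9215 and 9709 reads in siCtrl a and b, 1425 in siU2af65, 8206 in siPtbp1, 7697 in shGFP and 9100 in shnSR100. The RPKM values in the same order were 85.0, 74.2, 12.3, 69.2, 75.4 and 72.9. As with Gpr22, siU2af65 stood alone and the other 5 files lay within 1.23-fold. The control mean was 79.6 ± 7.60 RPKM (SD, n = 2), siU2af65 was at 14.5% of control a (13.7 to 15.3%) and 16.6% of control b (15.6 to 17.5%), and the log2 difference was -2.80 (SE 0.26).

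Acap1 (ENSMUSG00000001588) encodes a GTPase-activating protein for Arf6 that acts in endosomal recycling. It had 568 and 824 reads in siCtrl a and b, 80 in siU2af65, 1535 in siPtbp1, 135 in shGFP and 124 in shnSR100. In RPKM these were 3.65, 4.39, 0.480, 9.02, 0.920 and 0.690. The low level in siU2af65 was thus not far below that in the hairpin files, and siU2af65 was at 52.2% of shGFP (39.0 to 69.3%) and 69.4% of shnSR100 (51.7 to 92.7%). Against the controls, whose mean was 4.02 ± 0.523 RPKM (SD, n = 2), siU2af65 was at 13.2% of control a (10.3 to 16.7%) and 10.9% of control b (8.59 to 13.8%), with a log2 difference of -3.16 (SE 0.45). Over the 5 other files Acap1 spanned 13.1-fold, the widest span of the 8 genes.

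Lgals4 (ENSMUSG00000053964) encodes galectin-4, a sugar-binding lectin best known from intestinal epithelium, and was the gene with the fewest reads. It had 128 and 238 reads in siCtrl a and b, 23 in siU2af65, 126 in siPtbp1, 452 in shGFP and 369 in shnSR100. In RPKM these were 1.66, 2.55, 0.280, 1.49, 6.21 and 4.15. Its controls differed more from each other than those of any other of the 8 genes, with control b at 154% of control a (124 to 193%) and a mean of 2.10 ± 0.629 RPKM (SD, n = 2). The siU2af65 library was at 16.8% of control a (10.3 to 26.3%) and 10.9% of control b (6.78 to 16.7%), with a log2 difference of -3.005 (SE 0.62). Reads from Lgals6, a near-identical copy of Lgals4 in some mouse strains, could fall on Lgals4, and Lgals6 had no entry by that name. Epithelial markers, 4 in all, summed to 0.730 to 1.09 RPKM over the 6 files, with 3 of the 4 under 1 RPKM in every file.

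S100a1 (ENSMUSG00000044080) encodes a calcium-binding EF-hand protein known from heart and skeletal muscle. It had 268 and 330 reads in siCtrl a and b, 49 in siU2af65, 219 in siPtbp1, 462 in shGFP and 491 in shnSR100. The RPKM values were 6.67, 6.81, 1.14, 4.98, 12.2 and 10.6, so both hairpin files were above both controls, as for Lgals4. The control mean was 6.74 ± 0.0990 RPKM (SD, n = 2), siU2af65 was at 17.1% of control a (12.3 to 23.2%) and 16.7% of control b (12.1 to 22.6%), and the log2 difference was -2.66 (SE 0.54).

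The remaining genes, Psrc1, Neil3 and Pif1, act in dividing cells. Psrc1 (ENSMUSG00000068744) encodes a proline-rich protein that binds spindle microtubules and helps chromosomes to align. It had 1035 and 1188 reads in siCtrl a and b, 190 in siU2af65, 1122 in siPtbp1, 624 in shGFP and 1074 in shnSR100, or 9.89, 9.41, 1.70, 9.80, 6.33 and 8.91 RPKM. The siU2af65 value was well under all others, at 17.2% of control a (14.6 to 20.05%) and 18.03% of control b (15.4 to 21.0%), where the control mean was 9.65 ± 0.339 RPKM (SD, n = 2). The log2 difference was -2.61 (SE 0.41).

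Neil3 (ENSMUSG00000039396) encodes a DNA glycosylase that removes oxidized bases and helps to unhook interstrand crosslinks in S phase. It had 3992 and 5133 reads in siCtrl a and b, 829 in siU2af65, 6752 in siPtbp1, 1658 in shGFP and 3094 in shnSR100, or 28.3, 30.2, 5.50, 43.8, 12.5 and 19.1 RPKM. The order of the files was siU2af65, shGFP, shnSR100, both controls and siPtbp1, a 3.51-fold span without siU2af65. The control mean was 29.3 ± 1.32 RPKM (SD, n = 2), siU2af65 was at 19.4% of control a (17.99 to 20.9%) and 18.2% of control b (16.9 to 19.6%), and the log2 difference was -2.51 (SE 0.25).

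Pif1 (ENSMUSG00000041064) encodes a DNA helicase that unwinds G-quadruplexes and acts at telomeres and in mitochondria. It had 1431 and 1773 reads in siCtrl a and b, 315 in siU2af65, 1264 in siPtbp1, 654 in shGFP and 1174 in shnSR100, or 6.69, 6.87, 1.38, 5.40, 3.25 and 4.77 RPKM. The order from lowest to highest again began with siU2af65, shGFP and shnSR100, as for Neil3, but siPtbp1 was below the controls. The control mean was 6.78 ± 0.127 RPKM (SD, n = 2), siU2af65 was at 20.6% of control a (18.2 to 23.3%) and 20.03% of control b (17.7 to 22.6%), and the log2 difference was -2.40 (SE 0.36).

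Down to Pif1, the weakest of the 8, the ranking by log2 difference held 24 tested genes. Of those that were not chosen, 10 passed the edgeR threshold. Just inside the choice, Aprt, which encodes adenine phosphoribosyltransferase, was not chosen although its log2 difference was -2.41 (rank 23). Just outside, the chemokine gene Cxcl1 had a log2 difference of -2.40 (rank 25) at 1.67 and 1.58 CPM in the controls and 0.308 CPM in siU2af65. The 8 genes had a median log2 difference of -2.73, and all tested genes one of 0.00 (-0.004).

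After Ptbp1 knockdown, a contrast that the choice did not use, none of the 8 genes passed the test. It shares its control libraries with the U2af65 contrast, so the values are set side by side and not correlated. In edgeR 0.0267% of the tested genes were called, 3 in all, and 481 genes had an unadjusted p under 0.05, among them 2 of the 8. Acap1 was highest in siPtbp1 of all 6 files, at 247% of control a (224 to 272%) and 205% of control b (189 to 224%), with a log2 difference of 1.12 (SE 0.36, adjusted p = 0.895 in edgeR, 0.141 to 0.999 over the alternatives). Neil3 was also highest in siPtbp1, at 155% of control a (149 to 161%) and 145% of control b (140 to 150%), with a log2 difference of 0.53 (SE 0.21, adjusted p = 0.999 in edgeR, 0.729 to 1.000 over the alternatives). For both genes, counting error left siPtbp1 above both controls. In edgeR both were under 0.05 before adjustment over all tested genes and did not pass after it. The spread in that test drew on all tested genes as well as on the control pair.

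Of the other 6 genes, 5 were below both controls in siPtbp1 and Psrc1 lay between them. Their log2 differences were -0.54 for Lgals4 (SE 0.52), -0.49 for S100a1 (SE 0.47), -0.38 for Pif1 (SE 0.32), -0.32 for Gpr22 (SE 0.34) and -0.26 for Idh2 (SE 0.23), each with an edgeR adjusted p of 0.999. Psrc1 had a log2 difference of -0.03 (SE 0.35, adjusted p = 0.999 in edgeR), which became 0.07 without control a and 0.02 with library totals in place of TMM. The median over the 8 genes was -0.29, and over all tested genes it was 0.01. Gpr22, at -0.32 here, was at -3.44 after U2af65 knockdown, and Acap1, at 1.12 here, was at -3.16.

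In the hairpin cells, where each group was 1 file and no test was possible, none of the 8 genes differed 2-fold between shnSR100 and shGFP on the log2(RPKM + 1) scale, against 0.81% of the tested genes. The genes of dividing cells were higher in shnSR100, with Neil3 at 153% of shGFP (144 to 162%), Pif1 at 147% (133 to 162%) and Psrc1 at 141% (128 to 156%). The other 5 were lower, among which Lgals4 was at 66.8% (58.1 to 76.8%), Acap1 at 75.2% (58.4 to 96.6%) and S100a1 at 87.0% (76.4 to 98.9%). Idh2 was at 96.7% (93.8 to 99.7%), and Gpr22, at 93.7%, was not separable from shGFP by counting error (86.9 to 101%). The summed neuronal markers were at 1000 RPKM in shGFP and 552 RPKM in shnSR100, and their part in these values was not tested.

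The shGFP file also differed from the siRNA controls. On the log2(RPKM + 1) scale, 3 of the 8 genes were past 2-fold against both siCtrl libraries, beside 4.66% of the tested genes: Acap1, Lgals4 and Neil3. Acap1 in shGFP was at 25.2% of control a and 21.0% of control b, Neil3 at 44.1 and 41.4%, and Lgals4 at 375 and 243%. Pif1 was at 48.5 and 47.2% of the controls on the RPKM scale, Psrc1 at 64.0 and 67.3%, and S100a1 at 183 and 179%. For Gpr22 and Idh2, shGFP was at 115 and 89.2% and at 88.7 and 102% of controls a and b. The fibroblast markers moved between the same files, and their part in these values was not tested. The siU2af65 library was therefore at different shares of shGFP, from 4.48% for Lgals4 and 9.81% for Gpr22 to 44.0% for Neil3 and 52.2% for Acap1.

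**Figure D2:**
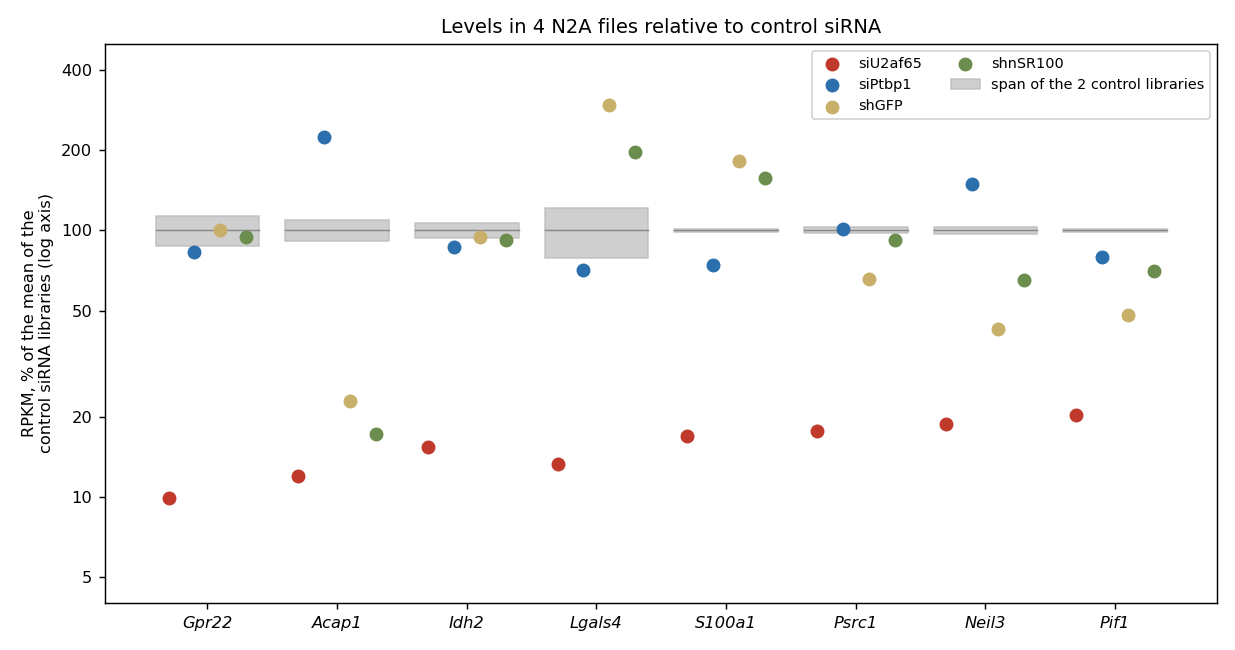
For each gene, points give the RPKM in 4 N2A files as a percent of the mean of both control siRNA libraries, on a log axis, and grey bands give the span of those libraries. The siU2af65 points lie lowest for all 8 genes, the hairpin points of Gpr22 and Idh2 lie near 100%, and those of Lgals4 and S100a1 lie above it, against 25.2 and 21.0% of controls a and b for Acap1 in shGFP.

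The profiles over the 6 files were compared by a distance, the root mean square difference of log2(RPKM + 0.5) after centring each gene on its own mean. Among pairs of the 8 genes, Gpr22 and Idh2 were closest (0.174), followed by Psrc1 and Pif1 (0.238) and by Lgals4 and S100a1 (0.261). Acap1 and Lgals4 were farthest apart (1.60). All 8 share the low value in siU2af65 by choice, so likeness in that file is fixed by the choice.

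Among all tested genes, the gene nearest to Idh2 was U2af2 itself (0.136), then Gpr22 (0.174) and Aprt (0.191). For Gpr22 the nearest were Idh2, Taz (0.189) and U2af2 (0.211). Psrc1 was nearest to Heca (0.117), Ppib (0.128) and Hnrnpd (0.167), and Pif1 to Miip (0.120), Gas2l3 (0.156) and Hnrnpd (0.192). Neil3 lay nearest to Sapcd2 (0.203), Depdc1a (0.253) and the mitotic phosphatase gene Cdc25c (0.297). Lgals4 was nearest to Lrrn3 (0.250), S100a1 (0.261) and Ptgfrn (0.271), and S100a1 to the tropomyosin gene Tpm3 (0.228), Lgals4 (0.261) and Lrrn3 (0.268). Near Acap1 were Mki67 (0.564) and Fos (0.570), both farther away than the third nearest gene of any of the other 7.

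The 8 genes were then set beside 130 tested genes of related families or functions, of which 18 fell and 3 rose after U2af65 knockdown in edgeR. The spindle list held 13 of the genes that fell, and the other 7 lists together had 5 that fell and 3 that rose among 94. Over all tested genes 3.42% fell and 1.82% rose. The few edgeR calls in those 7 lists, given list by list below, are therefore not read as responses of the families. No tested related gene reached the decrease of its chosen counterpart. The 8 genes were chosen for a strong decrease in this contrast, so that order follows from the choice. After Ptbp1 knockdown edgeR called 0 of the 130, with 5 at an unadjusted p under 0.05, while DESeq2 and limma on log2(RPKM + 1) each called 1, the malate dehydrogenase gene Mdh2, whose edgeR log2 difference was -1.38. With library totals in place of TMM, the calls over all tested genes were 581 higher and 581 lower, against 205 and 384 with TMM.

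**Figure D3:**
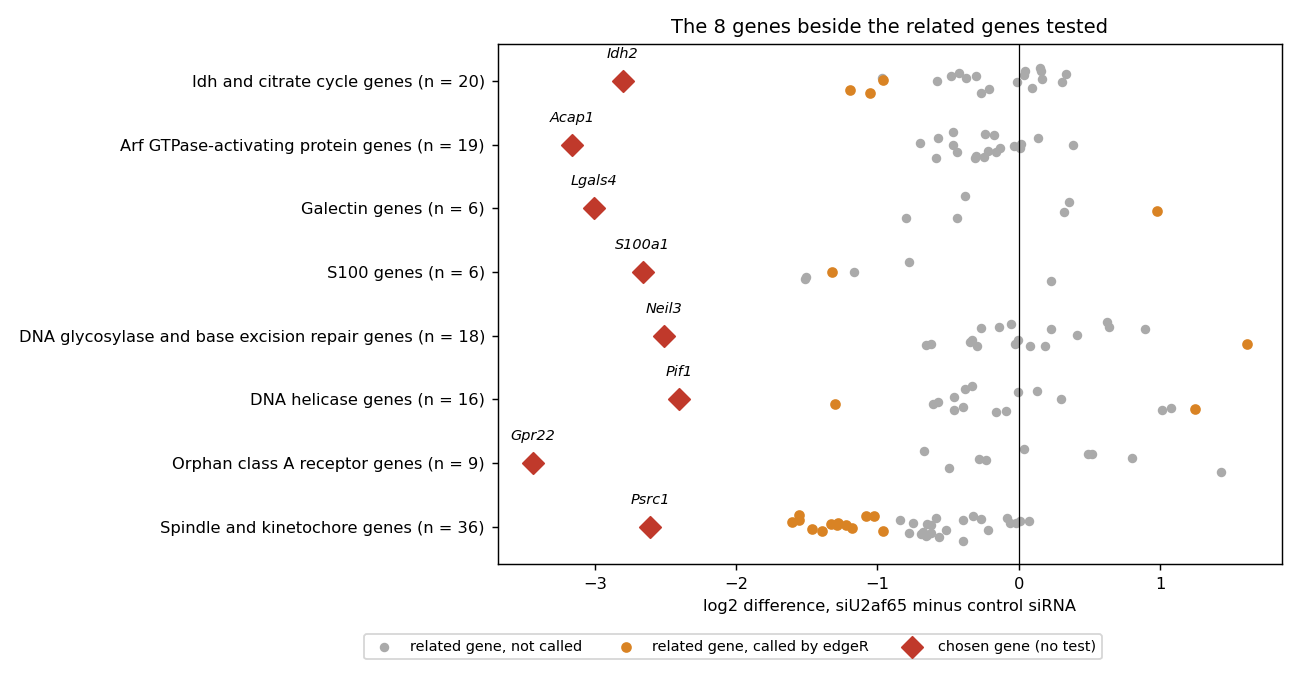
Each row shows the log2 difference after U2af65 knockdown for the tested genes of 1 list (small points, coloured where called) and for the chosen gene of that list (diamond, not tested), with vertical scatter only to separate points. The chosen genes lie between -3.44 and -2.40, to the left of every related gene, of which Nusap1, at -1.61, is the lowest.

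For Idh2, 20 genes of the isocitrate dehydrogenase family and the citrate cycle were tested, and 3 fell and 0 rose, with a list median of -0.24. Idh1, the cytosolic and peroxisomal counterpart of Idh2, was at 48.7 and 61.4 RPKM in siCtrl a and b, 39.5 in siU2af65, 46.4 in siPtbp1, 50.8 in shGFP and 37.7 in shnSR100. Its siU2af65 value was below both controls but above that in shnSR100, and its log2 difference was -0.58 (SE 0.22, adjusted p = 0.154 in edgeR). In the NAD-dependent enzyme, the regulatory subunit gene Idh3g fell by 1.05 (SE 0.22, adjusted p = 0.0299 in edgeR), while the catalytic subunit gene Idh3a had a log2 difference of -0.27 and Idh3b one of 0.05, neither called. Sdhc, which encodes a membrane anchor of succinate dehydrogenase, fell by 0.96 (SE 0.21, adjusted p = 0.0375). Sdhb, the gene of the iron-sulfur subunit and the most abundant of the list at a mean of 299 RPKM, had a log2 difference of 0.04 (SE 0.24). The decrease of Idh2, from 79.6 to 12.3 RPKM, was larger than that of any gene of the list, an order that follows from its choice by this contrast.

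For Acap1, none of 19 tested Arf GTPase-activating protein genes was called by edgeR, DESeq2 or limma, 3 had an unadjusted p under 0.05 in edgeR, and the list median was -0.24. Acap2 was at 17.1 and 18.2 RPKM in siCtrl a and b, 13.98 in siU2af65, 16.1 in siPtbp1, 19.3 in shGFP and 18.5 in shnSR100, with a log2 difference of -0.44 (SE 0.21, adjusted p = 0.243 in edgeR). Acap3 was at 27.1, 27.6, 32.2, 29.7, 37.3 and 30.1 RPKM in the same order, with a log2 difference of 0.13 (SE 0.21, adjusted p = 0.751). Both paralogs of Acap1 were more abundant than Acap1 in every file and spanned far less than its 13.1-fold range. Agfg1, the most abundant of the list at a mean of 74.7 RPKM, had a log2 difference of -0.47 (SE 0.23, adjusted p = 0.256).

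For Lgals4, 1 of 6 tested galectin genes rose and 0 fell. Lgals8, a galectin with 2 sugar-binding domains like galectin-4, was at 23.3 and 29.4 RPKM in siCtrl a and b, 55.4 in siU2af65, 29.5 in siPtbp1, 24.2 in shGFP and 19.6 in shnSR100. It was highest in siU2af65 and rose by 0.98 (SE 0.21, adjusted p = 0.0329 in edgeR), opposite to Lgals4. Lgals1, the most abundant galectin at a mean of 1101 RPKM, had a log2 difference of -0.38 (SE 0.31, adjusted p = 0.50). The list median was -0.03 and became 0.07 with library totals in place of TMM.

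For S100a1, 1 of 6 tested S100 genes fell, 5 of 6 had negative differences and the list median was -1.24, the lowest of the 8 lists. S100a6 was at 271 and 192 RPKM in siCtrl a and b, 100.1 in siU2af65, 196 in siPtbp1, 412 in shGFP and 344 in shnSR100. It fell by 1.32 (SE 0.29, adjusted p = 0.0345 in edgeR), and like S100a1 it was higher in both hairpin files than in any siRNA library. The log2 differences of the others were -1.50 for S100a13 (SE 0.46, adjusted p = 0.0858), -1.51 for S100a7a, -1.17 for S100a4 (adjusted p = 0.171), -0.77 for S100a10 (adjusted p = 0.116), the most abundant of the list at a mean of 199.5 RPKM, and 0.23 for S100a11 (adjusted p = 0.849), none of them called. DESeq2 called 2 genes of the list, S100a6 and S100a13, and limma on log2(RPKM + 1) called 4, those and S100a4 and S100a10, all lower in siU2af65.

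For Neil3, 1 of 18 tested DNA glycosylase and base excision repair genes rose and 0 fell. Nthl1, which like Neil3 encodes a glycosylase for oxidized pyrimidines, was at 4.14 and 5.51 RPKM in siCtrl a and b, 15.8 in siU2af65, 5.78 in siPtbp1, 8.39 in shGFP and 8.83 in shnSR100. It was highest in siU2af65 and rose by 1.61 (SE 0.39, adjusted p = 0.0467 in edgeR), while Neil3 was lowest there. Neil1 was at 5.38, 5.45, 3.78, 5.76, 5.51 and 6.53 RPKM, with a log2 difference of -0.62 (SE 0.44, adjusted p = 0.434), and Neil2, at a mean of 0.333 RPKM over the siRNA libraries, was too low to be tested. Polb, the gene of the repair polymerase beta and the most abundant of the list at a mean of 96.1 RPKM, had a log2 difference of -0.33 (SE 0.21, adjusted p = 0.377). The list median was -0.02 and became 0.08 with library totals.

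For Pif1, 1 of 16 tested DNA helicase genes fell and 1 rose, with a list median of -0.25. Ddx11, an iron-sulfur helicase of sister chromatid cohesion, fell by 1.30 (SE 0.30, adjusted p = 0.0417 in edgeR), a call lost with limma on log2(RPKM + 1). Twnk, the mitochondrial replicative helicase gene, rose by 1.25 (SE 0.26, adjusted p = 0.0299). Fbxo18, the most abundant of the list at a mean of 31.7 RPKM, had a log2 difference of -0.01 (SE 0.21). Over all tested genes 3.42% fell and 1.82% rose, so no pattern is read from 1 helicase call in each direction. Both calls were lost with a mean of at least 5 RPKM required. DESeq2 and limma each had 3 helicase genes that rose, Twnk, Recql4 and Helq.

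For Gpr22, 34 listed orphan class A receptor genes had counts and 9 were abundant enough to test. None of the 9 was called by edgeR with TMM or by DESeq2, and 2 had an unadjusted p under 0.05 in edgeR. With limma on log2(RPKM + 1), 1 was called (Gpr85, higher), and with library totals in edgeR 1 rose. The list median was 0.04. The log2 differences ran from -0.67 (Gpr3, adjusted p = 0.279) to 1.43 (Gpr12, SE 0.45, adjusted p = 0.0960), and Gpr85, at a control mean of 10.3 RPKM, had one of 0.80 (SE 0.25, adjusted p = 0.0918). Gpr19, the most abundant of the list at a mean of 19.6 RPKM, had a log2 difference of 0.52 (SE 0.25, adjusted p = 0.248). Without a filter on low values, edgeR tested 31 of the list, of which 2 rose and 2 fell, with a median of -0.338. Among receptors too low for the main test, Gpr21 had 44 and 34 reads in siCtrl a and b and 3 in siU2af65. Gpr182 had 120, 173 and 27 reads in the same order, while others, such as Gpr62 (59, 79 and 106 reads), were higher in siU2af65. Over all genes that setting had 688 that rose and 961 that fell among 17622.

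For Psrc1, 13 of 36 tested spindle and kinetochore genes fell and 0 rose, 34 had negative differences, and the list median was -0.67 (-0.56 with library totals). The lowest were Nusap1, a microtubule-bundling protein gene (-1.61, SE 0.23), and the mitotic kinase genes Aurka (-1.56, SE 0.25) and Aurkb (-1.55, SE 0.27), all of which fell (edgeR adjusted p = 0.0115, 0.0137 and 0.0175). The others that fell were the kinesin genes Kif11 (-1.03), Kif18b (-1.28) and Kif23 (-1.39), the anaphase midzone gene Prc1 (-1.18), Aspm (-1.47), Hmmr (-1.23), the kinetochore gene Spc25 (-1.29), and Plk1 (-1.08), Ccnb2 (-1.33) and Cdc20 (-0.96). Ccnb1, the cyclin B1 gene and the most abundant of the list at a mean of 117 RPKM, had a log2 difference of -0.75 (SE 0.24, adjusted p = 0.103). Kif2a, the kinesin whose depolymerase activity Psrc1 is known to aid, had a log2 difference of -0.40 (adjusted p = 0.345). Psrc1, at -2.61 and chosen for its decrease, lay below the lowest gene of this list. The genes of this list that fell were also below both controls in shGFP, so their low level was not particular to siU2af65. Prc1 was at 78.5 and 76.9 RPKM in siCtrl a and b, 36.8 in siU2af65 and 34.0 in shGFP. Like Prc1, the genes Plk1, Ccnb2, Cdc20, Hmmr and Aspm were lower in shGFP than in siU2af65. Nusap1, Aurka, Aurkb, Kif11, Kif18b, Kif23 and Spc25 were higher in shGFP than in siU2af65. The cause was not tested.

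With a mean of at least 5 RPKM required, 10 of the 13 spindle calls were kept, the losses being Kif11, Plk1 and Cdc20. Of the other 8 calls 7 were lost under that filter, all but Nthl1. With shGFP added to the controls no related gene was called.

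The genes beside the 8 in the genome were followed next, taken from RefSeq's gene order on GRCm38.p6, protein-coding genes only. Of 18 nearest or overlapping genes 15 were tested, and 0 were called after U2af65 knockdown by edgeR, with a median log2 difference of -0.35 and a range of -1.50 to 1.06. Of these 15, 9 had negative and 6 positive differences. Gpr22 lies within Cog5, which runs on the opposite strand and encodes a Golgi tethering subunit. Cog5 was at 20.7 and 21.7 RPKM in siCtrl a and b, 17.9 in siU2af65, 19.0 in siPtbp1, 18.3 in shGFP and 17.5 in shnSR100, with a log2 difference of -0.35 (SE 0.22, adjusted p = 0.368 in edgeR). The host gene thus kept most of its level in the library in which Gpr22 was at 11.3% of control a. Whether the authors' counting used strand was not given in the sources used here, so reads from overlapping genes may not be separated.

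S100a1 overlaps S100a13 on the opposite strand. S100a13 was at 15.7 and 12.5 RPKM in siCtrl a and b, 5.35 in siU2af65, 11.6 in siPtbp1, 18.7 in shGFP and 16.8 in shnSR100. Like S100a1, S100a13 was lowest in siU2af65 and highest in the hairpin files, and its log2 difference of -1.50 was the lowest of the 15. The values of both genes are uncertain to the extent that they share reads. Chtop, on the other side, had a log2 difference of 0.20 (SE 0.21).

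The genes flanking Lgals4, Ech1 and Lgals7, both had log2 differences of -0.80 (adjusted p = 0.0674 and 0.359), and those flanking Idh2 had 0.33 (Zfp710) and -0.74 (Sema4b, adjusted p = 0.113). Beside Neil3, the growth factor gene Vegfc had the highest difference of the 15, 1.06 (SE 0.37, adjusted p = 0.126 in edgeR), and Aga one of -0.46. Kctd11 and 2810408A11Rik beside Acap1 had 0.63 and -0.27, Celsr2 beside Psrc1 -0.44, and Plekho2 beside Pif1 -0.56, none called. At an unadjusted p under 0.05, edgeR had 4 of the 15: Sema4b, Ech1, S100a13 and Vegfc. DESeq2 and limma on log2(RPKM + 1) each called 2 of the 15, S100a13 and Ech1, both lower in siU2af65.

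**Figure D4:**
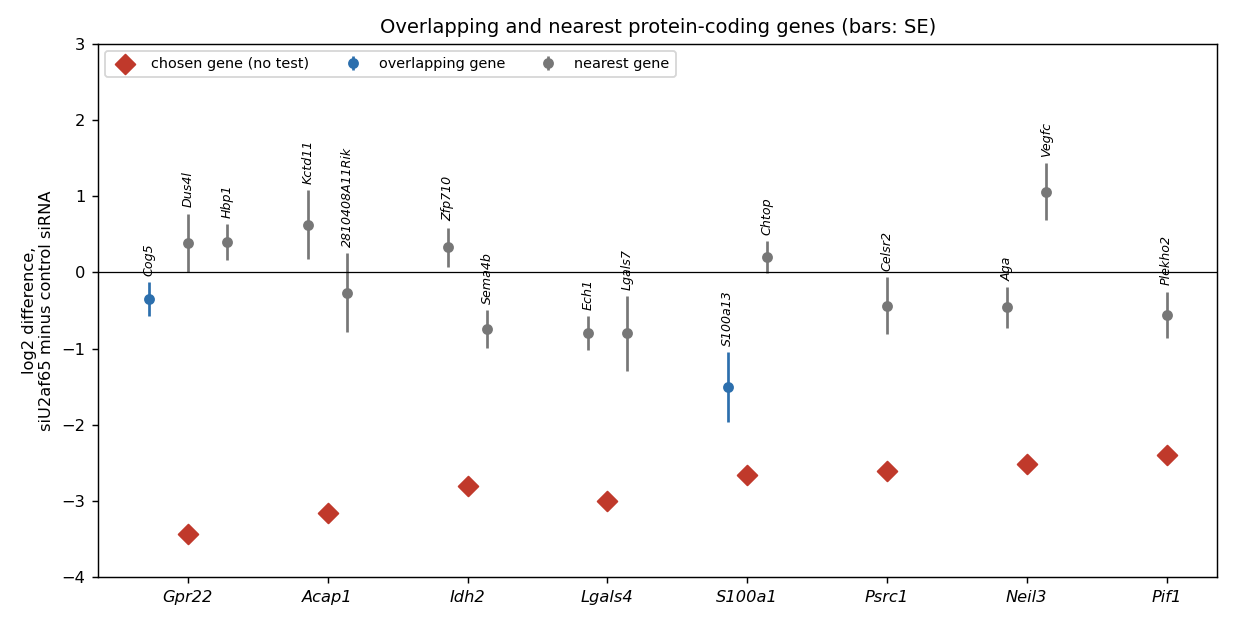
The log2 difference after U2af65 knockdown is shown for each chosen gene (diamond, not tested) and for its tested nearest (grey) and overlapping (blue) genes, with bars for the SE. Every neighbouring gene shown lies above its chosen gene, which follows from the choice by this contrast. The lowest of them is S100a13, at -1.50.

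Promoter windows of 250 bases before to 50 after the annotated start, from RefSeq on GRCm38.p6, matched 6 of the 8 genes, all but Acap1 and Pif1. Because Psrc1 and Neil3 are genes of dividing cells, letters known from cell cycle promoters were searched on both strands: the CCAAT box, the cell cycle homology region TTTGAA and its one-letter variant TTCGAA (which reads the same on both strands), and the E2F forms TTTGGCGC and TTTCGCGC. CCAAT was in 4 of the 6, against 37.4% of the 32851 windows in the table. TTCGAA was in Psrc1 and Neil3, against 1.56% of windows, and TTTGAA (17.9% of windows) and the E2F forms (0.514% and 0.323%) were in none of the 6. For genes with a printed site, 1 motif of each kind is shown in capitals with 10 bases on each side, 5′ to 3′ on the gene's strand, since they are the letters that these genes share or do not share near their starts. A match is a description of sequence and not evidence of binding.
Psrc1, TTCGAA, chr3:108383798-108383823, plus strand: gcctaagaaaTTCGAAcgaagctccg
Psrc1, CCAAT, chr3:108383753-108383777, plus strand: cttggactcaCCAATcgctgtgcgt
Idh2, CCAAT, chr7:80115380-80115404, minus strand: cgggtgagacCCAATggggcggcag
Lgals4, CCAAT, chr7:28833725-28833749, plus strand: cagccagccaCCAATggcagaactg
Gpr22, CCAAT, chr12:31713944-31713968, minus strand: gcagtttaagCCAATacaactggcc

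The printed CCAAT letters began 41 bases before the start of Psrc1, 44 before that of Idh2, 59 before that of Lgals4 and 75 before that of Gpr22. Further CCAAT letters began at position -62 and, on the other strand, -124 from the start of Gpr22, and at -241 on the other strand of Psrc1. The TTCGAA letters began at base 5 of the transcript in Psrc1 and 202 bases before the start in Neil3, so the position was not shared. The 4 genes with CCAAT included Gpr22 and Idh2, whose 5 other files lay within 1.36-fold, as well as Lgals4, whose 5 other files spanned 4.17-fold.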

How the data were processed

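The deposited files give, per Ensembl mouse gene, a raw read count and an RPKM value computed by the authors. Within each file RPKM equalled the count divided by a fixed length per gene and the file's total (checked over 7927 genes, within 1%). Per the submitters' processing notes, Bowtie, bedtools 2.17.0, hg19 and mm9 are named, with no role stated. The counting rule, strand use and annotation are not given in the sources used here. Genes without an RPKM numbered 1114, and 20759 of 22667 identifiers matched a symbol. Each hairpin file combines 2 runs and was used as 1 file. The 2 human files and the 12 crosslinking samples were not analysed here.

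The 8 genes and all lists were chosen with earlier results of these data known. edgeR 4.0.16 (R 4.3.3) ran its quasi-likelihood test with TMM on the 4 siRNA libraries, on the 11237 genes whose mean reached 1 RPKM. Only the control pair gives a residual degree of freedom (1, beside 8.65 prior ones), so the lone knockdown libraries are assumed to vary like the controls. Adjusted p-values are Benjamini-Hochberg over all tested genes, with a threshold of 0.05. "Called", "rose" and "fell" refer to it. The SE is the log2 difference divided by the square root of F. The script was tested on simulated data. Hairpin files were described, with exact binomial intervals at 95%. Alternatives used DESeq2 1.42.0, limma 3.58.1, library totals, other filters, shGFP added to the controls, and each control left out.

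Named related genes were the called genes of each list, the most abundant gene of each list, the nearest and overlapping genes, the 3 genes with the most similar profile, and the nearest ranks. The rule also asked for the paralogs most identical in protein sequence. No protein sequences were used here, so family members were named after their values were seen. These are Idh1, Idh3a, Idh3b, Acap2, Acap3, Neil1, Neil2, Gpr3, Gpr12, Gpr21, Gpr62, Gpr85, Gpr182, Kif2a, Mdh2, Recql4, Helq and the S100 genes other than S100a6 and S100a10. Of the genes that this rule names, 2 are not reported here.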

Additional observations from a re-analysis of the deposited data

How the results depend on the processing

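The number of genes called depended on the settings. After U2af65 knockdown 589 were called in edgeR with TMM, 1045 with DESeq2, 1162 with library totals, 1649 without a filter on low values, 257 with a mean of at least 5 RPKM, 1285 with limma on log2(RPKM + 1) and 0 with shGFP added to the controls. After Ptbp1 knockdown the counts in the same order were 3, 20, 86, 99, 1, 99 and 0. Of the related genes 21 were called, 33 without a filter, 11 with a mean of at least 5 RPKM and 0 with shGFP added. The cause of these differences was not tested, beyond the numbers of genes and libraries that differ by construction. At an unadjusted p under 0.05, edgeR with TMM had 2645 and 481 genes for U2af65 and Ptbp1.

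The 8 genes, chosen for their decrease, kept negative differences after U2af65 knockdown under the alternatives compared for them. DESeq2 and limma with a pseudocount of 0.1 were not among these. The ranges were -3.56 to -1.96 for Gpr22, -3.23 to -1.76 for Acap1, -2.95 to -2.60 for Idh2, -3.66 to -1.26 for Lgals4, -2.95 to -1.86 for S100a1, -2.70 to -1.98 for Psrc1, -2.57 to -2.20 for Neil3 and -2.46 to -1.71 for Pif1. The pseudocount of 1 RPKM in limma understates the change of low genes. None was called after Ptbp1 knockdown under any alternative. Psrc1 changed sign there, from -0.03 to 0.0223 with library totals, 0.0205 with limma on log2(RPKM + 1), 0.0225 with a pseudocount of 0.1, 0.16 with shGFP added and 0.0651 without control a, against -0.13 without control b. The filter at 5 RPKM left no value for Gpr22, Acap1, Lgals4 and S100a1. Lgals4, with 23 reads in siU2af65, is the gene most limited by depth. No paired analysis was possible because each knockdown has 1 library, siCtrl shares only the letter a with siU2af65 and b with siPtbp1, and a block for the letter leaves no residual degree of freedom.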
